A study of Danio rerio with 3 samples.

Results

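The comparison set the microRNAs (miRNAs) of zebrafish larvae whose parents had lived in 12.5 mg/L of an antibiotic mixture against those of larvae whose parents had lived in 6.25 mg/L. A miRNA arm is the mature strand cut from one side of a hairpin, and its level here is the sum of all its forms. Members were taken from the sequences with a zebrafish miRNA name and no base substitution, summed per arm. An arm was kept where its normalised reads averaged at least 100 across the 3 libraries of the series, and 167 arms passed while 49 did not. The comparison used 2 of the 3 libraries, and the library from parents at 0 mg/L entered only the filter.

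All fish were wild-type zebrafish of the AB strain, and each library came from whole F1 larvae at 7 days post-fertilisation (dpf). Their parents (F0) were exposed from 6 hours post-fertilisation for 90 days, so the dose is that of the parents. The mixture held equal weights of 6 β-diketone antibiotics, namely ofloxacin (spelled "ofluoxacin" in the labels), ciprofloxacin, enrofloxacin, doxycycline, chlortetracycline and oxytetracycline. The groups were larvae of parents at 12.5 mg/L and larvae of parents at 6.25 mg/L, with 1 library each; the sources used here do not say how many larvae or parent pairs went into a library. With 1 library a group there was no replicate and no test, so "higher" and "lower" describe these libraries, and a size rule of 1.5-fold or 2-fold stands in for a threshold.

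A miRNA guides an Argonaute protein to messenger RNAs that pair with its seed, the bases from position 2 to 8, and lowers their stability or translation. Arms that share a seed form a family with overlapping targets. In a whole larva many miRNAs report a tissue, such as miR-122 the liver, miR-133a the muscle and miR-9 the brain; in such bulk RNA, fewer cells of a type and less RNA per cell cannot be told apart.

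The arms on which the results turn are shown first, each as its most abundant form in the deposited tables (5′ to 3′, with T for U, and the seed in capitals). The first set holds the miR-125 family and miR-135b-5p, which were past 1.5-fold higher, with miR-100-5p, whose genes lie beside miR-125b genes.
miR-125a: tCCCTGAGacccttaacctgtga
miR-125b-5p: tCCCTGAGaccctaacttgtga
miR-125c-5p: tCCCTGAGaccctaactcgtga
miR-100-5p: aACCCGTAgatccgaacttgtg
miR-135b-5p: tATGGCTTtttattcctatctgt

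The second set holds arms past 1.5-fold lower, among them the 4 lowest, together with miR-190a, which was near the median arm and is shown because it shares its seed with miR-190b. Here miR-181a-5p and miR-181b-5p share a seed too.
miR-2189: tGATTGTTtgtatcagctgtgt
miR-7a: tGGAAGACtagtgattttgttgt
miR-190b: tGATATGTttgatattcggttg
miR-190a: tGATATGTttgatatattaggtt
miR-122: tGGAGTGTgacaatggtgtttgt
miR-21: tAGCTTATcagactggtgttggc
miR-181a-5p: aACATTCAacgctgtcggtgagt
miR-181b-5p: aACATTCAttgctgtcggtgggt

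The third set holds the 3p arms of miR-430, which share a seed and were low together.
miR-430a-3p: tAAGTGCTatttgttggggtag
miR-430b-3p: aAAGTGCTatcaagttggggtag
miR-430c-3p: tAAGTGCTtctctttggggtag

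Counts summed to 6041242 at 12.5 mg/L and 5099264 at 6.25 mg/L. The 167 arms held 84.0% and 84.2% of them. Most of the remaining counts were zebrafish sequences with a substitution, at 11.8% and 12.3%, and sequences named for other species, at 4.12% and 3.41%. Levels are the authors' normalised reads, obtained as counts times a factor of 0.709 (12.5 mg/L) or 1.02 (6.25 mg/L). Under that scaling the totals still differed, and setting them equal adds 0.28 to every log2 ratio. The median arm had a log2 ratio of -0.15 as deposited and 0.13 under equal totals, so arms no more than 0.28 below 0 change sign with the scaling. Distances from the median arm do not depend on scaling. They enter below as counts past 1.5-fold and as the side of the median arm on which an arm lay. Printed log2 ratios are as deposited unless equal totals are named. The intervals of a ratio are exact 95% intervals of the counts and cover counting error only, because amplified reads are not independent molecules. The 3 arms just inside the filter were miR-206-5p, miR-141-5p and miR-2191, with means of 102.9, 104 and 117 normalised reads, of which miR-206-5p and miR-141-5p passed only through the 12.5 mg/L library, since their other libraries averaged 87.9 and 99.4. The 3 just outside were miR-202-5p, miR-7148-5p and mir-7a-3-p3, with means of 93.6, 97.2 and 97.3.

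Of the 167 arms, 7 (4.19%) were at least 1.5-fold higher at 12.5 mg/L and 25 (15.0%) at least 1.5-fold lower, while 135 lay within 1.5-fold. At 2-fold there was 1 arm higher (0.599%), miR-135b-5p, and 1 lower (0.599%), miR-2189. The counting intervals of all 32 arms past 1.5-fold excluded 1, as did those of 82.6% of all 167 arms. Measured from the median arm instead, 12 arms were at least 1.5-fold higher and 6 lower. Under equal totals the counts were 20 higher and 4 lower. Both scalings raise every log2 ratio, by 0.15 and 0.28. All 7 higher arms therefore had to stay past 1.5-fold, and lower arms could only drop out. Of the 25 lower arms 6 stayed past 1.5-fold measured from the median arm. Under equal totals 4 stayed past it, namely miR-2189, miR-7a, miR-190b and miR-122.

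**Figure D1:**
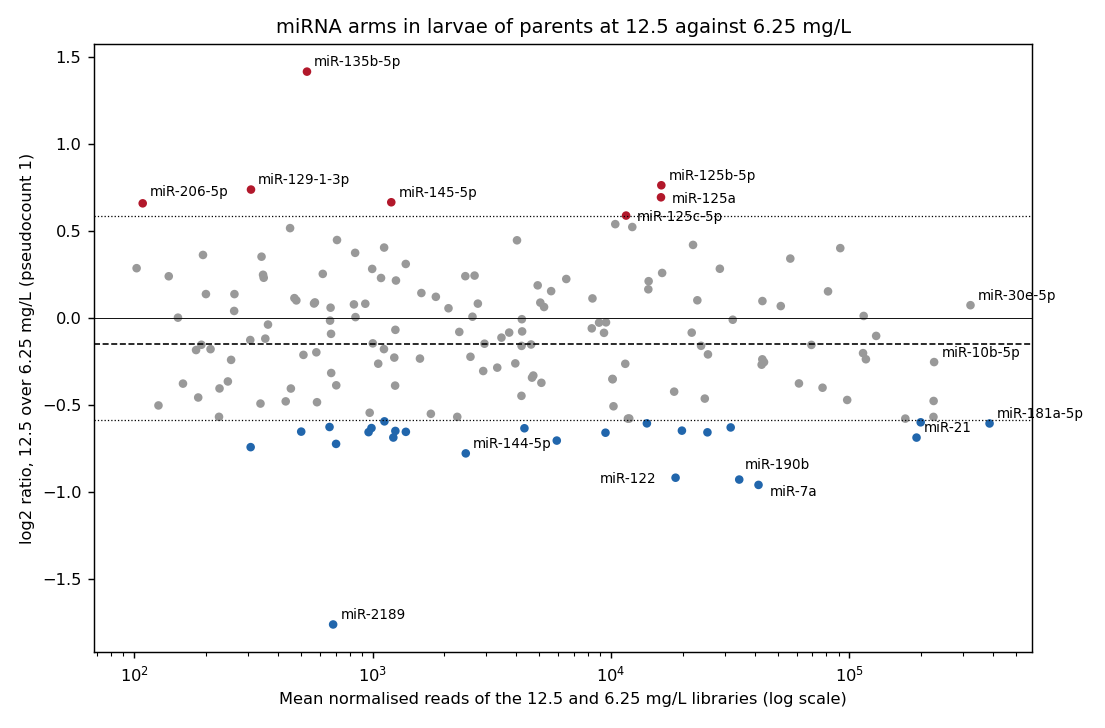
Log2 ratio of each of the 167 arms at 12.5 over 6.25 mg/L (vertical axis) against its mean level in normalised reads (horizontal axis, log scale). Red points are the 7 arms at least 1.5-fold higher, blue points the 25 at least 1.5-fold lower, the dashed line is the median arm at -0.15 and the dotted lines mark 1.5-fold; the points past 1.5-fold are spread over the whole range of abundance.

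The highest arms were led by miR-135b-5p, whose mammalian counterpart targets the Wnt pathway gene APC. It had 771 normalised reads at 12.5 mg/L and 288 at 6.25 mg/L, 2.68-fold higher (interval 2.35 to 3.06). The 3 arms of miR-125, the vertebrate relatives of the worm timing gene lin-4, were also among the 7 past 1.5-fold higher. Levels of miR-125b-5p were 20452 at 12.5 mg/L and 12045 at 6.25 mg/L, 1.70-fold higher (1.66 to 1.73). Those of miR-125a were 20021 and 12371, 1.62-fold higher, and those of miR-125c-5p 13889 and 9230, a log2 ratio of 0.59. The 3 levels were of similar size, and together they give the one seed family past 1.5-fold higher.

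Also past 1.5-fold higher were 3 scarcer arms. The neural miR-129-1-3p had 386 reads at 12.5 mg/L and 231 at 6.25 mg/L (log2 ratio 0.74), the smooth muscle miR-145-5p 1468 and 925 (0.67), and the skeletal muscle arm miR-206-5p 132.9 and 83.8 (0.66, ratio interval 1.22 to 2.09). The more abundant miR-129-5p was not higher as deposited, with 3607 and 4322 reads (-0.26, or 0.02 under equal totals). Since miR-206-5p passed the filter only through the library in which it was high, it had to be higher there, and 6 higher arms remain without it. Below 1.5-fold but among the 12 highest came miR-100-5p (12341 and 8487; 0.54), miR-199-5p of mesenchyme (14478 and 10071; 0.52), miR-23a-3p (530 and 370; 0.52), miR-731 (817 and 599; 0.45) and the hair cell miR-96-5p (4650 and 3410; 0.45).

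The lowest arm was miR-2189, with 310 reads at 12.5 mg/L and 1054 at 6.25 mg/L. It was thus lower by 3.40-fold, with an interval of the ratio from 0.262 to 0.329. Of the next arms, 3 abundant ones were close to 2-fold lower. Levels of miR-7a, which is enriched in neurosecretory and islet cells, were 28211 and 54896, 1.95-fold lower. Those of miR-190b were 23748 and 45233, 1.90-fold lower. Those of miR-122, the main miRNA of hepatocytes, were 12901 and 24393, 1.89-fold lower (interval 0.519 to 0.539). These 4 arms stood at log2 ratios between -1.76 and -0.92, and the next arm at -0.78.

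That next arm was the erythroid miR-144-5p, with 1809 reads at 12.5 mg/L and 3104 at 6.25 mg/L (1.72-fold lower). Among the 12 lowest there followed miR-27b-5p (log2 ratio -0.74), miR-10c-3p (-0.72), the endothelial miR-126a-5p (4499 and 7337; -0.71), miR-21 (146477 and 236004; -0.69), miR-10d-3p (-0.69), miR-2184 (7344 and 11606; -0.66) and miR-218a (19683 and 31056; -0.66). The stress-linked miR-21 was the most abundant of these 12. Among the remaining 13 lower arms the log2 ratios ran from -0.66 to -0.59, so many lie near the 1.5-fold limit.

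The 8 most abundant arms took 38.7% of counts at 12.5 mg/L and 43.0% at 6.25 mg/L. The most abundant at 12.5 mg/L, miR-30e-5p, had 330345 and 313893 reads, a log2 ratio of 0.07, and at 6.25 mg/L miR-181a-5p was more abundant. The other 7 were below the median arm. They were miR-10b-5p (206798 and 246543; -0.25, or 0.03 under equal totals), miR-10c-5p (188598 and 262570; -0.48), miR-192 (181383 and 269097; -0.57), the neural progenitor miR-9-5p (137620 and 205556; -0.58), miR-181b-5p (158246 and 239902; -0.60), miR-181a-5p (307007 and 467572; -0.61) and miR-21. Arms with a mean of 10000 or more had a median log2 ratio of -0.25 over 54 arms, those between 1000 and 10000 -0.10 over 56 and those below 1000 -0.09 over 57. Whether abundance played a part in the ratios was not tested.

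The arms were grouped into lists by tissue or function, and 20 lists held at least 1 tested arm. Every list median is set beside the -0.15 of all arms. It covers only arms that passed the filter, so listed miRNAs without such an arm are absent from it. The list with miR-125 was furthest from it. In the list of miR-99, miR-100 and miR-125, the median of 7 arms was 0.54, with 3 arms past 1.5-fold higher and 1 past it lower. The 4 arms high in this list are the guide strands given above. The other 3 are from the opposite side of the hairpins and lay below the median arm. They were miR-100-2-3p (389 and 613; -0.65), miR-125b-2-3p (182.2 and 271; -0.57) and mir-125a-1-p3 (233 and 276; -0.24, or 0.04 under equal totals).

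Liver, intestine and kidney arms had a median of -0.53 over 4 arms. Beside miR-122, miR-192 of intestinal and kidney epithelium was 1.48-fold lower, mir-194b-p3 had 281 and 395 reads (-0.49), and miR-194b 950 and 1051 (-0.15). The metabolic list had a median of -0.45 over 3 arms, all below the median arm. It held miR-103 (15443 and 24203; 1.57-fold lower), miR-148 (3559 and 4855; -0.45) and miR-107b (2372 and 2769; -0.22, or 0.06 under equal totals). Pancreatic arms had a median of -0.24 over 3 arms. The acinar miR-217 (9438 and 14098; -0.58) was lower than its neighbour miR-216b (39562 and 46650; -0.24), and the islet miR-375 had 2793 and 3095 (-0.15).

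Blood and vessel arms lay on both sides of the median arm. The red blood cell list held only miR-144-5p and miR-144-3p (540 and 620, log2 ratio -0.20), with a median of -0.49. It also names miR-451 and miR-486, which had no tested arm, so it rests on 1 hairpin. The 5 immune cell arms had a median of 0.10, and 4 of them lay above the median arm. miR-146a, an inhibitor of NF-κB signalling, had 44610 and 41691 reads (0.10), and miR-146b 1524 and 1228 (0.31), while miR-155 had 156 and 214.5 (-0.46). The vessel wall list of 4 arms had a median of -0.23 with miR-145-5p past 1.5-fold higher and miR-126a-5p past it lower. Its most abundant arm, miR-143 of smooth muscle, had 15712 and 21076 (-0.42), and miR-126a-3p had 8823 and 8987 (-0.03, or 0.26 under equal totals). Thus miR-143 and miR-145-5p, both known from smooth muscle, lay on opposite sides of the median arm.

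The 6 muscle arms had a median of 0.15. The list also names miR-1, which had no tested arm, and of miR-206 only the 5p arm was tested. Without miR-206-5p, which only its 12.5 mg/L level brought past the filter, the median of the other 5 was 0.12, and each of these 5 lay above the median arm. The most abundant, miR-133a-3p, had 115249 and 114309 reads (0.01), the cardiac and slow muscle miR-499-5p 5242 and 4601 (0.19) and miR-133b-3p 671 and 563 (0.25). The sensory cell arms miR-96-5p and miR-96-3p had a median of 0.09, and miR-182 and miR-183 of the same list had no tested arm. The 4 cartilage and mesenchyme arms had a median of -0.12, with miR-140-5p at 9439 and 9604 (-0.02) and miR-140-3p at 23648 and 27343 (-0.21).

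The nervous system list was split. Its median over 14 arms was -0.05. The list leaves out miR-129, whose arm miR-129-1-3p was past 1.5-fold higher. Of the 14, none was past 1.5-fold higher and 4 were past it lower, beside 4.19% and 15.0% of all 167 arms. These 4 were miR-7a, miR-218a of motor neurons, miR-219-5p of oligodendrocytes (24934 and 38580; -0.63) and miR-138-5p (11206 and 17060; -0.61), with miR-9-5p just short of the limit. Above the median arm were the neuronal miR-124-3p (15151 and 13512; 0.17), miR-153a-3p (15428 and 13320; 0.21), miR-137-3p (5349 and 5119; 0.06) and miR-132-3p (2120 and 2039; 0.06). The 5 low arms thus stood at least 0.58 below 0 and the other 9 lay between -0.23 and 0.25.

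All 10 arms of the Hox cluster list, which are transcribed from within the Hox gene clusters, lay below the median arm, with a median of -0.40. The 3 past 1.5-fold lower were the scarce 3p arms miR-10c-3p (529 and 875 reads), miR-10d-3p (934 and 1506) and miR-10b-3p (892 and 1348). Of the abundant arms, miR-10d-5p had 66473 and 87784 (-0.40), and miR-196a-5p 2601 and 3214 (-0.31). The nearest to the median arm was miR-196b (1045 and 1184; -0.18, or 0.10 under equal totals).

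The tested miR-430 arms belong to a family known for clearing maternal messenger RNA from the embryo, and the 4 had a median of -0.57. miR-430b-3p had 745 and 1176 reads (1.58-fold lower), miR-430a-3p 968 and 1520 (1.57-fold lower) and miR-430c-3p 486.4 and 681 (-0.48). The 5p arm miR-430b-5p had 1215 and 1274 (-0.07, or 0.21 under equal totals), above the median arm.

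Of the 15 arms of miR-17-92 and its paralogs, a cluster linked to proliferation, 11 lay above the median arm, and none was past 1.5-fold either way (median 0.08). Among these, miR-20a-5p had 31402 and 25800 reads (0.28), miR-19a-3p 17845 and 14910 (0.26), miR-19b-3p 52749 and 50295 (0.07) and miR-92a-3p 38851 and 46804 (-0.27, or 0.01 under equal totals). The genes of the first 3 lie within 10 kb of each other, with 1 of the 2 genes matched to miR-92a-3p. The pair of miR-130 and miR-301 arms had a median of 0.28, with miR-301a at 25270 and 18880 (0.42) and miR-130c-5p at 1680 and 1520 (0.14). In the stress list 5 of 6 arms lay above the median arm (median 0.02) and miR-21 was 1.61-fold lower. The p53-linked miR-34b (848 and 845) and miR-34c-5p (266 and 259) had log2 ratios of 0.01 and 0.04, and miR-462, the neighbour of miR-731, had 2840 and 2682 (0.08).

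The remaining lists, apart from that of miR-181, had medians near that of all arms. The 9 epithelium and skin arms had a median of -0.18. Their most abundant arms, miR-205-5p (124848 and 134091; -0.10, or 0.18 under equal totals) and miR-200a-3p (107644 and 126889; -0.24, or 0.05 under equal totals), lay on opposite sides of the median arm, and miR-200a-5p (1070 and 1685) was 1.58-fold lower. The 7 arms of miR-30 and miR-26 had a median of -0.09, with miR-30c-5p at 104226 and 78875 (0.40). The 7 arms of miR-23, miR-27 and miR-24 had a median of -0.16, with miR-27b-3p at 21158 and 22430 (-0.08, or 0.20 under equal totals) miR-24 at 3977 and 4446 (-0.16, or 0.12 under equal totals) and miR-27c-3p at 4213 and 4233 (-0.01, or 0.28 under equal totals). The 4 arms of miR-181 had a median of -0.43, with both 5p arms past 1.5-fold lower, miR-181a-3p at 10425 and 12515 (-0.26, or 0.02 under equal totals) and miR-181c-3p at 209 and 190 (0.14). In no list were 49 arms, among them miR-135b-5p, miR-129-1-3p, miR-2189, miR-190b and miR-2184. The let-7 family was not analysed here.

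**Figure D2:**
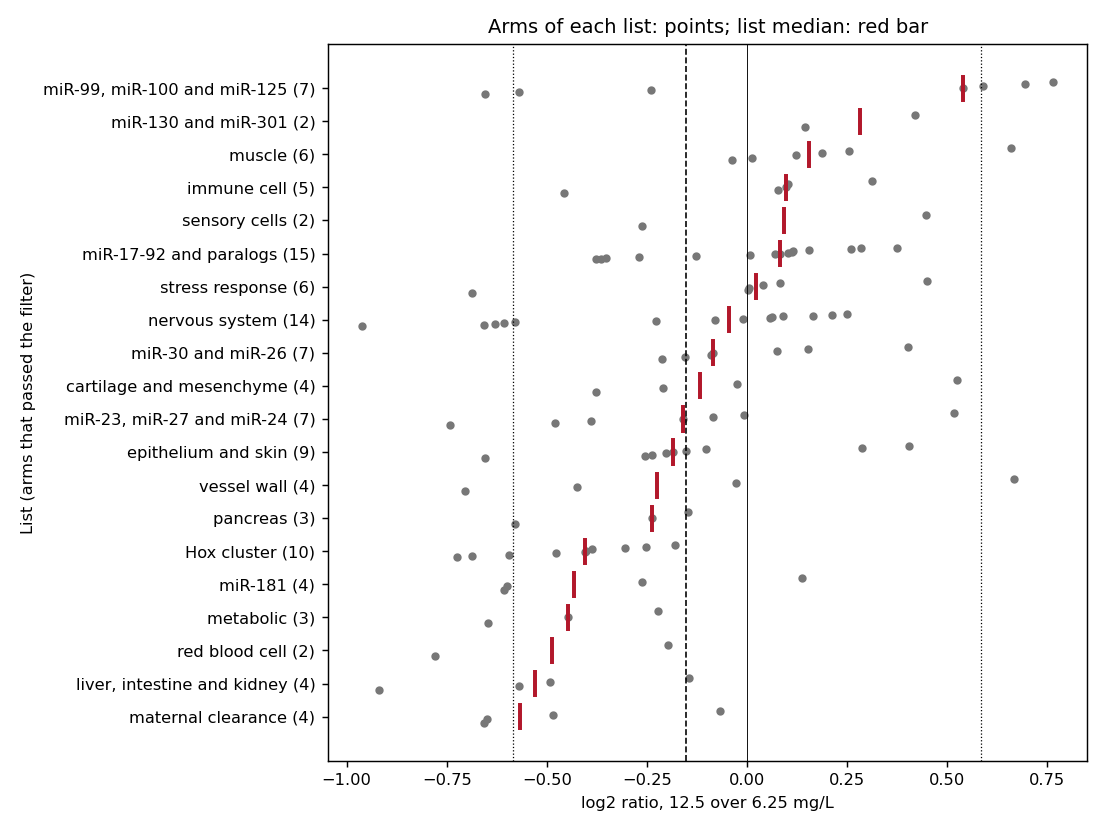
Log2 ratio at 12.5 over 6.25 mg/L (horizontal axis) of the tested arms in each of the 20 lists (rows). Grey points are arms, red bars list medians and the dashed line the median arm at -0.15; the list with miR-125 has the highest median (0.54) and both high and low arms, and all 10 Hox cluster arms lie left of the dashed line.

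Summing arms that share the bases from position 2 to 8 gave 24 seed families with 56 arms. In 12 families every arm was below 0, in 6 every arm was above 0 and 6 were mixed. Over all 167 arms, 104 were below 0 and 63 above. Those signs hold as deposited, and those of arms up to 0.28 below 0 turn under equal totals. The median range within a family was 0.18 on the log2 scale. Over all arms the standard deviation was 0.41, an unlike measure that cannot be set against a range over a few arms. Values of near-identical arms are uncertain where the authors' counting could split reads between them.

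The miR-125 family (seed CCCTGAG) summed to 54362 reads at 12.5 mg/L and 33646 at 6.25 mg/L, 1.62-fold higher (1.59 to 1.64). All 3 of its arms were at least 1.5-fold higher. In the RefSeq gene table both miR-100 genes have a miR-125b gene within 10 kb, while 1 of the 3 miR-125b genes has no such neighbour. Reads of these arms sum over their genes, and the log2 ratios of the 5p arms were 0.76 and 0.54.

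The family of miR-181 (ACATTCA) summed to 465253 and 707474, with a log2 ratio of -0.60. Its 2 arms differed by only 0.0066. The miR-430 3p arms (AAGTGCT) summed to 2200 and 3377, a log2 ratio of -0.62 (ratio interval 0.620 to 0.685). The pair of miR-103 and miR-107b (GCAGCAT) summed to 17816 and 26972 (-0.60). All arms of these 3 families were below 0, and under equal totals miR-107b lay above it, at 0.06.

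The miR-190 family (GATATGT) was the lowest in sum, at 27869 and 49581 (-0.83). Its 2 arms were unlike: miR-190b stood at -0.93 and miR-190a, with 4121 and 4348 reads, at -0.08, or 0.21 under equal totals. The pair with seed ATCTTAC, miR-200a-5p and miR-141-5p, summed to 1182 and 1777 (-0.59). Its arms differed by 0.94, but miR-141-5p, at 0.29, passed the filter only through the 12.5 mg/L library.

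The other families with the most reads lay within 1.5-fold. The miR-30 family (GTAAACA) summed to 500125 and 465750 (0.10), with arms at 0.40, 0.07 and, for miR-30d, -0.15. The miR-10 family (ACCCTGT) summed to 461868 and 596896 (-0.37), the skin-enriched miR-203 family (TGAAATG) to 146061 and 169722 (-0.22, or 0.07 under equal totals), miR-92 with miR-363 (ATTGCAC) to 68578 and 74305 (-0.12, or 0.17 under equal totals), and miR-22 (AGCTGCC) to 86194 and 118987 (-0.47). Among the 3 highest were also miR-20a-5p, miR-93 and miR-20b-5p (AAAGTGC), at 42710 and 36442 (0.23), and the 5p arms of miR-153 (TCATTTT), at 966 and 871 (0.15).

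**Figure D3:**
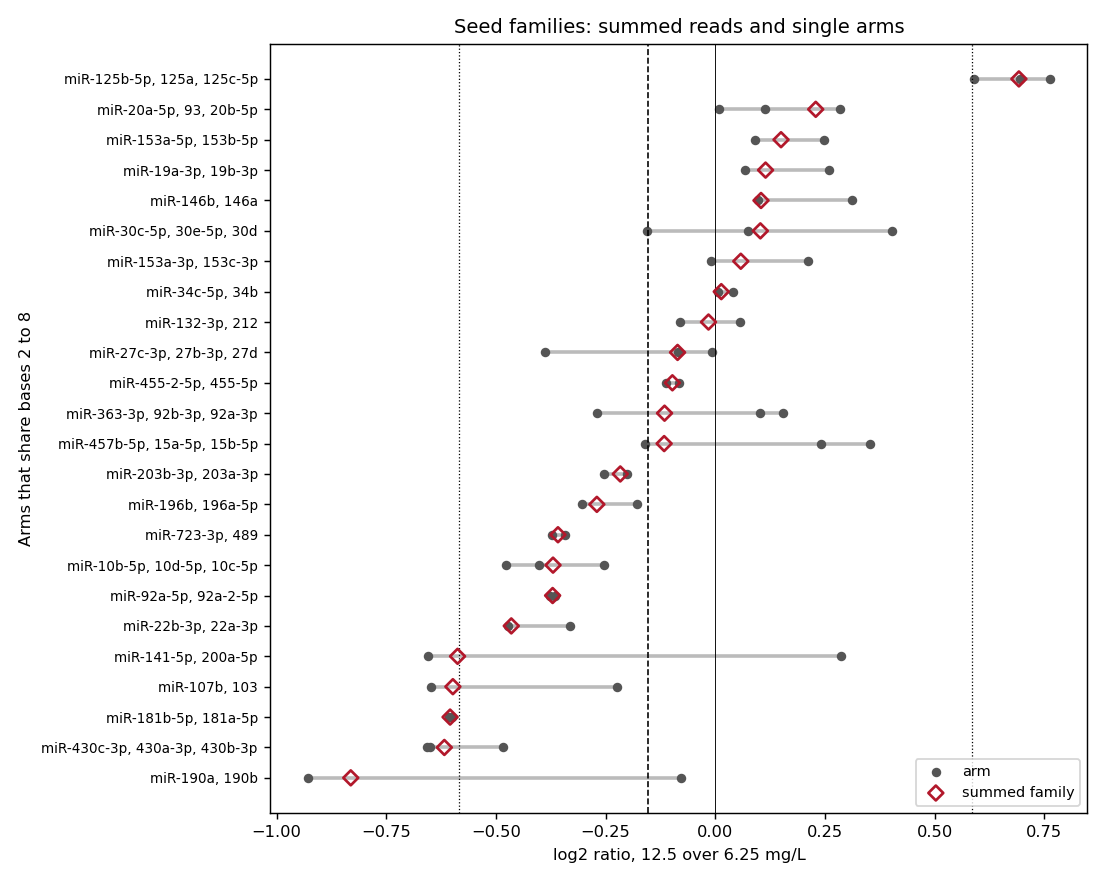
Log2 ratio at 12.5 over 6.25 mg/L (horizontal axis) of the 24 seed families (rows). Points are arms, diamonds the ratio of the summed reads and the dashed line the median arm; the 3 miR-125 arms lie between 0.59 and 0.76, the 2 miR-181 arms coincide at -0.60 and the 2 miR-190 arms lie at -0.93 and -0.08.

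Both arms were tested for 41 hairpins. Arms were paired by name; 30 of the pairs matched 1 gene in the RefSeq table, 8 matched several, whose reads are summed, and 3 matched none. The difference of the 2 log2 ratios does not depend on scaling. The median size of that difference was 0.29, in 17 hairpins it was below 0.2 and in 8 it exceeded 1.5-fold. For example, miR-142a-5p stood at 0.08 and miR-142a-3p at 0.10, and miR-2184 at -0.66 and mir-2184-p3 at -0.63.

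The hairpin with the largest difference was miR-135b, with a log2 difference of 1.65. Its 5p arm was the highest of all, and its 3p arm had 1451 reads at 12.5 mg/L and 1706 at 6.25 mg/L (-0.23, or 0.05 under equal totals). The 3p arm held more reads than the 5p arm in both libraries. In miR-199 the 5p arm stood at 0.52 and the 3p arm, with 53442 and 69378 reads, at -0.38, a difference of 0.90. This pair matched no gene, so its arms are paired by name only and may sum over several hairpins. In miR-728 the 2 arms had 377 and 321 reads (0.23) and, for mir-728-p5, 104 and 148.1 (-0.50). In miR-96 the 3p arm had 959 and 1150 reads (-0.26, or 0.02 under equal totals) while the 5p arm stood at 0.45. The arm with more reads had the higher ratio in 26 of the 41 hairpins.

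**Figure D4:**
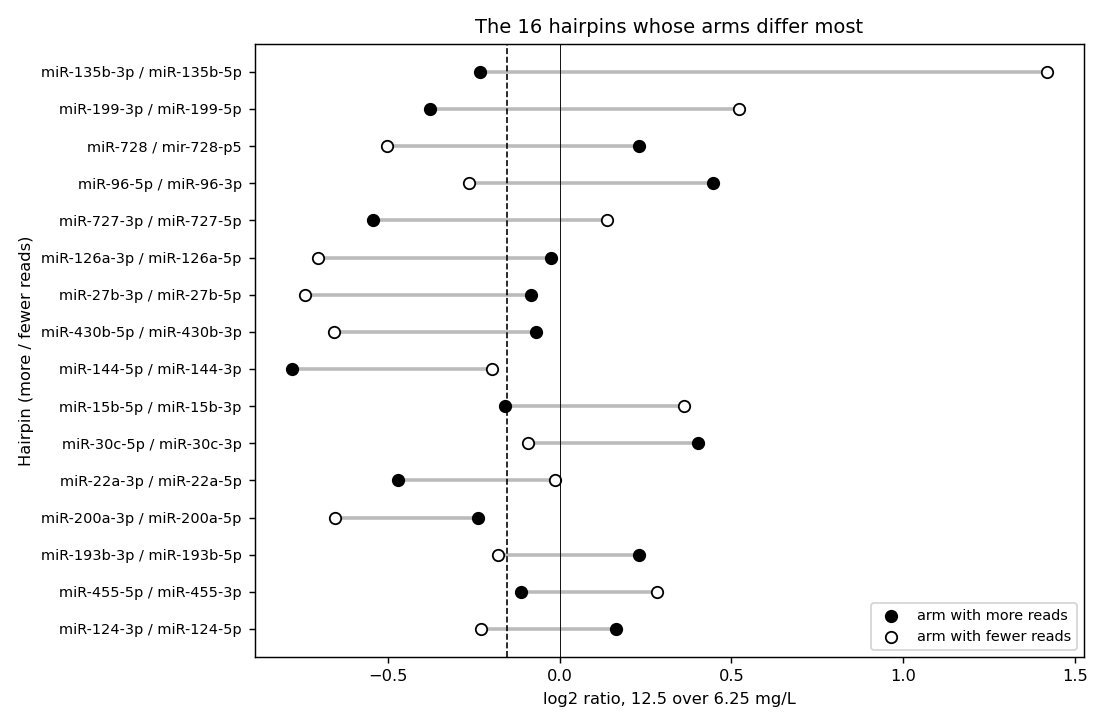
Log2 ratio at 12.5 over 6.25 mg/L (horizontal axis) of both arms of the 16 hairpins whose arms differ most (rows). Filled points are the arm with more reads, open points the arm with fewer, and the line joins them; miR-135b has the longest line, from -0.23 to 1.42.

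The 3′ end of a miRNA varies by trimming and by addition of bases, and its position is written in the deposited names relative to the annotated end. Over all reads of the 167 arms the mean 3′ end lay 0.370 nt beyond the annotated one at 12.5 mg/L and 0.300 nt at 6.25 mg/L. The difference of 0.070 nt was made up of 0.061 nt from a different mix of arms and 0.0086 nt from shifts within arms. The largest parts of the mix came from miR-30e-5p (0.040 nt) and miR-30c-5p (0.022 nt). Other arms added to the mix or took from it, and miR-181b-5p (-0.015 nt) and miR-192 (-0.011 nt) took the most. Of the shifts within arms, miR-181a-5p alone gave 0.0067 nt, and 0.0019 nt remained without it. Reads were 22.56 nt long on average at 12.5 mg/L and 22.52 nt at 6.25 mg/L. Forms longer than annotated took 35.8% of reads at 12.5 mg/L and 33.5% at 6.25 mg/L, forms with the annotated end 46.7% and 48.1%, and shorter forms 17.5% and 18.4%. Measured against each arm's shortest form, the mean difference was -0.0159 nt, so the sign over all reads depends on the reference point; in that measure the arms with a single form count as 0 in both libraries.

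Within arms the comparison rests on few of them. Only 28 of the 167 arms held more than 1 form in these libraries, and 18 had at least 2 different 3′ ends that each took 1% or more of the arm, a minimum set once the data had been looked at. In 14 of these 18 the mean end lay further out at 12.5 mg/L, and in 12 of the 14 the 95% interval from the spread of read ends excluded 0. In the other 4 it lay further in, with 2 intervals excluding 0. Such intervals treat reads as independent and cover no difference between libraries of the same dose. The median shift was 0.033 nt.

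Setting the longest against the shortest form with the same 5′ start gave 18 pairs in 17 arms. The longest form had the higher ratio in 15 pairs and the lower in 3, those of miR-212, miR-7a and miR-132-3p. The median log2 difference between them was 0.50, which does not depend on scaling. Of the longest forms 13 ended in T, and 12 of those had the higher ratio, a share near the 15 of 18 over all pairs. For miR-219-5p a form ending in G and a form ending in T were summed and counted under G. The forms of 4 arms follow, with the bases beyond the shortest form in capitals.
miR-499-5p, shortest: ttaagacttgcagtgatgttt
miR-499-5p, longest: ttaagacttgcagtgatgtttAT
miR-137-3p, shortest: ttattgcttaagaatacgcgt
miR-137-3p, longest: ttattgcttaagaatacgcgtAC
miR-124-3p, shortest: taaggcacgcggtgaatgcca
miR-124-3p, longest: taaggcacgcggtgaatgccaAT
miR-181a-5p, shortest: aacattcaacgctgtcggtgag
miR-181a-5p, longest: aacattcaacgctgtcggtgagTTT

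The longest form of miR-499-5p had 416 reads at 12.5 mg/L and 164 at 6.25 mg/L, 2.53-fold higher (2.12 to 3.03), and the shortest had 4825 and 4437. The longest form thus took 7.94% of the arm at 12.5 mg/L and 3.57% at 6.25 mg/L. For miR-137-3p the longest form took 9.13% and 4.91%, with 488 and 251 reads, and for miR-124-3p 4.27% and 2.87%, with 647 and 388 reads. In miR-181a-5p the longest form had 23597 and 19342 reads, 1.22-fold higher, while the annotated form had 197975 and 318812 and the shortest 85434 and 129417. An arm that was 1.52-fold lower in sum thus held 1 form that was higher, and that form took 7.69% and 4.14% of it.

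The miR-430 3p arms had the same order of forms. In miR-430b-3p the form 2 nt beyond the annotated end had 112 and 76.1 reads and the form 2 nt short of it 146.4 and 298. In miR-430a-3p the form with 4 more nt had 31.2 and 18.4 reads, with a ratio interval of 0.960 to 3.12. In miR-429b the form 4 nt short of the annotated end took 1.56% of the arm at 12.5 mg/L and 5.17% at 6.25 mg/L. That form is only 18 nt long and had 28 and 48.6 counts, the latter not whole. Whether all its reads belong to miR-429b was not tested. In miR-24 the longest form took 61.8% and 56.3%. Running the other way, the longer form of miR-7a took 36.5% and 39.3%, and the full form of miR-132-3p 88.0% and 91.3%. Their mean ends differed by -0.028 and -0.033 nt, those of miR-212 by -0.021 nt and those of miR-430b-5p by -0.0097 nt. In miR-29b the longer form had only 2 counts in each library.

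For miR-219-5p, miR-430a-3p and miR-430b-3p the tables list 2 forms of the same length, differing in the last base, with identical values in every library. Counted once, the 3 arms were 1.62-fold, 1.59-fold and 1.58-fold lower, and the mean end of each still lay further out at 12.5 mg/L, by 0.071, 0.15 and 0.35 nt.

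The 5′ end sets the seed, and 2 abundant arms had 5′ forms in different shares. In miR-199-3p the form that starts 1 base later had 24841 reads at 12.5 mg/L and 36310 at 6.25 mg/L, or 46.5% and 52.3% of the arm, and the annotated form 28348 and 32905. In miR-204-5p, an arm of the eye, the form with 1 base more at the 5′ end had 8657 and 6009 reads, or 13.7% and 12.1%.

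**Figure D5:**
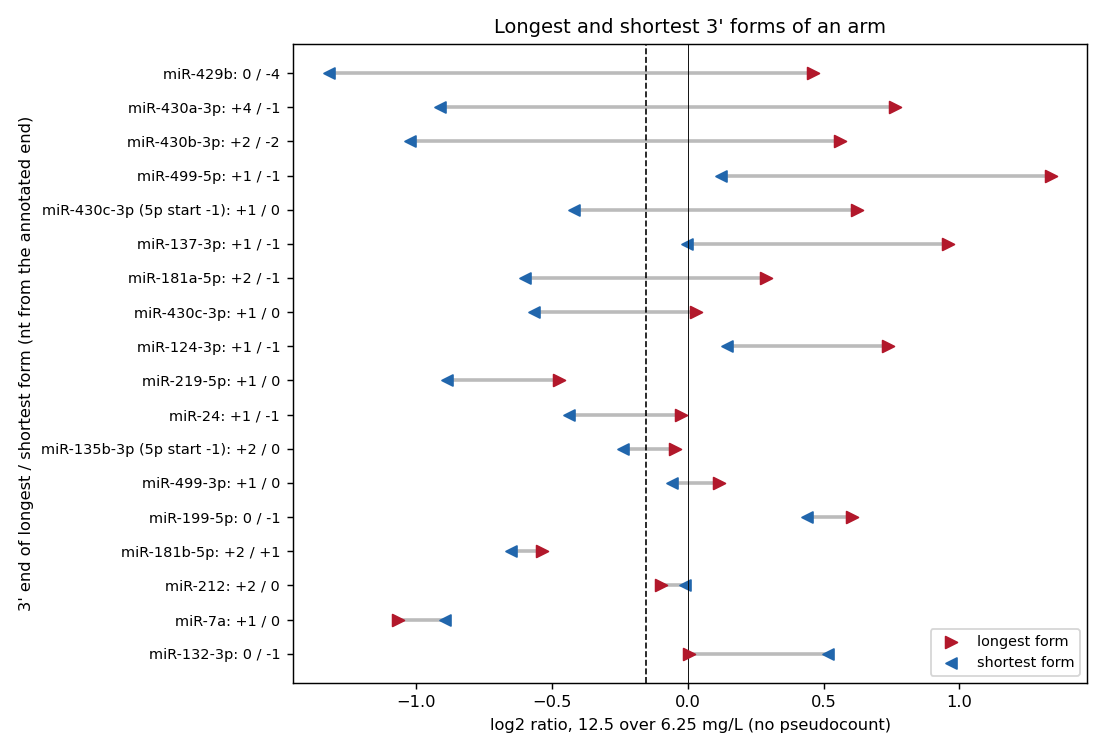
Log2 ratio at 12.5 over 6.25 mg/L (horizontal axis) of the longest form (red triangles pointing right) and the shortest form (blue triangles pointing left) with the same 5′ start, for 18 pairs (rows). The red triangle lies to the right in 15 rows and to the left in the rows of miR-212, miR-7a and miR-132-3p. These ratios used no pseudocount.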

How the data were processed

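Small RNA of whole larvae was sequenced as single-end reads of 36 bp (TruSeq small RNA kit, Illumina HiSeq), per the labels' protocols. The authors deposited raw values, here treated as estimated counts (expected counts) per sequence, of which 78.2% were whole (tolerance 1e-09); the sources used here do not say how fractions arose. The authors also deposited normalised values, used here as a signal in normalised reads, which equal the counts times 1 factor per library. The genome build was Zv9 per the submitters' processing notes, and the aligner is not named in the sources. Of the 4 tables, 2 were used, and no value differed between them.

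The 1430 lines gave 1202 distinct sequences, of which 265 carried a zebrafish name without substitution. These were kept once each and summed per arm. Log2 ratios used a pseudocount of 1, which understates differences of scarce arms. Those of the longest against the shortest forms used no pseudocount. No count test was run, since each group had 1 library. Neighbouring genes (within 10 kb) came from a RefSeq gene table of another assembly, in which 159 of 167 arms matched. The arms named were the 12 highest and 12 lowest, the 8 most abundant, the 2 most abundant per list, the 4 hairpins with the largest arm difference and the 6 arms with the largest 3′ shift each way. Named seed families were the 6 with most reads and the 3 highest and lowest. Other arms were named with their values in view, and the members and lists were chosen with earlier results of these data known. Python 3.11.15, pandas 2.3.3, numpy 2.4.6, scipy 1.17.1 and matplotlib 3.10.9 were used. The arm ratios and their counting intervals were checked on simulated counts, and the other steps were not. Alternatives were other scalings, pseudocounts, filters and ways to sum forms.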

Additional observations from a re-analysis of the deposited data

How the results depend on the processing

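Against 7 arms higher, 25 lower and a median of -0.15, equal totals gave 20, 4 and 0.13. The median of ratios gave 12, 6 and a median of 0.00, which is the same shift as measuring from the median arm. The filters and substituted forms changed the number of arms tested, so their counts cannot be set against 7 and 25 of 167. At a mean of 10 or more, 12 of 198 arms were higher and 29 lower. At 1000 or more, 4 of 111 were higher and 19 lower. With no filter, which tested the most arms, 18 were higher and 32 lower. With substituted forms included, 11 of 190 were higher and 26 lower. All 7 higher arms were kept under every setting but the filter at 1000, which left 4 of them in the test. The scalings raise every ratio and a looser filter removes no arm, so keeping them there was fixed in advance. Each of these 7 arms had 1 form. Taking the most abundant form alone, or counting identical forms once, therefore could not change their ratios either. The 25 lower arms were kept under every setting but the scalings and the filter at 1000, which left 19. Equal totals kept 4 of the 25 and the median of ratios 6. A looser filter could remove none of them. Most of them had 1 form, which a choice among forms cannot change, and identical forms occurred in only 3 arms. Pseudocounts of 0.5 and 10 left both counts as they were, and the most abundant form alone gave 8 and 25. The 3′ difference of 0.070 nt was 0.0619 with substituted forms, 0.00615 with arms weighted equally, 0.0748 without the 5p arms of miR-181a and miR-181b and -0.0159 against the shortest form. Leaving out miR-181, and counting identical forms once, which left 7 and 25 arms, were chosen after seeing the data. No paired analysis was possible because each group had 1 library, which also left no library to leave out. Depth limits arms near 100 normalised reads: the least abundant arms had 147 counts at 12.5 mg/L and 82 at 6.25 mg/L.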

Other observations

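Over the 167 arms, those named 5p had a median log2 ratio of -0.02 (59 arms), those named 3p -0.19 (62 arms) and those with no arm in the name -0.23 (46 arms). Arms whose most abundant form was longer than annotated had a median of -0.03 (41 arms), against -0.18 (100 arms) for the annotated end and -0.17 (26 arms) for shorter forms. Spearman's rho of the log2 ratio across arms was 0.09 with GC content, -0.13 with abundance and 0.10 with length; arms come from the same pair of libraries and are not independent.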
